A study of Ramazzottius varieornatus and Hypsibius exemplaris with 16 samples.

Results

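The transcriptome of active whole animals was compared between 2 tardigrades: Ramazzottius varieornatus, strain YOKOZUNA-1, on one side, and Z151, a strain of Hypsibius exemplaris, on the other. The 6 libraries, 3 per species, were chosen by their labels as the active whole-body samples among the 16 libraries of the series, of which the other 10 came from storage cells. Both species were fed the green alga Chlorella vulgaris on agar, R. varieornatus at 22 °C and H. exemplaris at 18 °C, and the sample names of all 6 carry the term Chlorella48h, which the labels do not explain. Active animals were homogenised, and their RNA was extracted with TRIzol and columns and amplified with SMART-Seq v.4. The labels call the samples biological replicates and do not state how many animals went into each library. Species, strain, culture temperature and the set of transcript models all change together between the 2 groups, and their effects cannot be told apart.

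Tardigrades are microscopic animals, many of which survive desiccation in an ametabolic state called anhydrobiosis. R. varieornatus tolerates rapid drying, whereas H. exemplaris generally needs a slower drying or a period of preconditioning. The animals described here were hydrated and active, and each library mixes the RNA of all tissues of the body.

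Each library was deposited as a list of targets (transcript models) with a length, an effective length, an estimated read count and a TPM value. TPM is the count per base of effective length, rescaled so that the values of a library add up to a fixed sum, and it therefore expresses each target as a share of the measured transcripts. The R. varieornatus libraries held 5404555 to 5601269 estimated counts over 14532 targets, and the H. exemplaris libraries held 5437134 to 5807509 over 20853 targets. The identifiers carry no gene names, and none was found in the gene table used here (0 matches in each species), so targets are given by identifier, no marker of any tissue could be looked up, and no target is matched between the species. Each comparison between species therefore rests on 1 value per library. With 3 libraries against 3, a two-sided exact permutation test over the 20 splits cannot give a p below 0.1, so no comparison between the species could pass 0.05. Differences are given as R. varieornatus minus H. exemplaris. Each permutation p is the share of splits whose difference of means is at least as large, in either direction, as that observed. Of 30 such comparisons, 25 had groups that did not overlap, each with an exact p of 0.1 and a Benjamini-Hochberg adjusted p of 0.12. The 30 are not independent of each other. Some are nested, the shares of the length classes add up to the whole, and the mean TPM per model is computed from those shares. The 25 are therefore not separate results.

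The most abundant transcripts took a larger share of the transcriptome in R. varieornatus than in H. exemplaris. The leading target held 5.21%, 4.77% and 5.17% of TPM in the 3 R. varieornatus libraries, against 2.52%, 2.39% and 2.48% in the H. exemplaris libraries. Every R. varieornatus library lay above every H. exemplaris library, at a ratio of means of 2.05. The 10 most abundant targets held 14.4% ± 0.609 in R. varieornatus and 10.02% ± 0.304 in H. exemplaris (SD, n = 3 each). The 100 most abundant held 35.0% ± 0.599 in R. varieornatus and 30.4% ± 1.78 in H. exemplaris (SD, n = 3 each). Neither of these pairs of groups overlapped. Part of the difference in the 10 leading targets lay in the single leading target: once it was removed from each library and TPM rescaled, the difference was 2.21 percentage points, against 4.40 with it.

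The rank-abundance curves crossed below the top ranks. At rank 10, the target at that rank had 6123 ± 125 TPM in R. varieornatus and 5276 ± 336 TPM in H. exemplaris (SD, n = 3 each). At rank 50 the curves met, with 1983 ± 77.7 TPM in R. varieornatus and 2031 ± 170 TPM in H. exemplaris. At rank 100 the order had turned, with 1083 ± 7.03 TPM in R. varieornatus and 1501 ± 62.3 TPM in H. exemplaris. H. exemplaris thus had a broader shoulder of abundant targets: ranks 101 to 300 held 14.2% ± 0.297 of TPM in R. varieornatus and 18.0% ± 0.465 in H. exemplaris (SD, n = 3 each). By rank 1000 the curves were closer, at 146 ± 0.378 TPM in R. varieornatus and 154 ± 4.81 TPM in H. exemplaris, still without overlap. The libraries of the species overlapped at ranks 5000 and 8000. At rank 10000 they were apart again, with 3.16 ± 0.25 TPM in R. varieornatus and 4.63 ± 0.661 TPM in H. exemplaris.

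**Figure D1:**
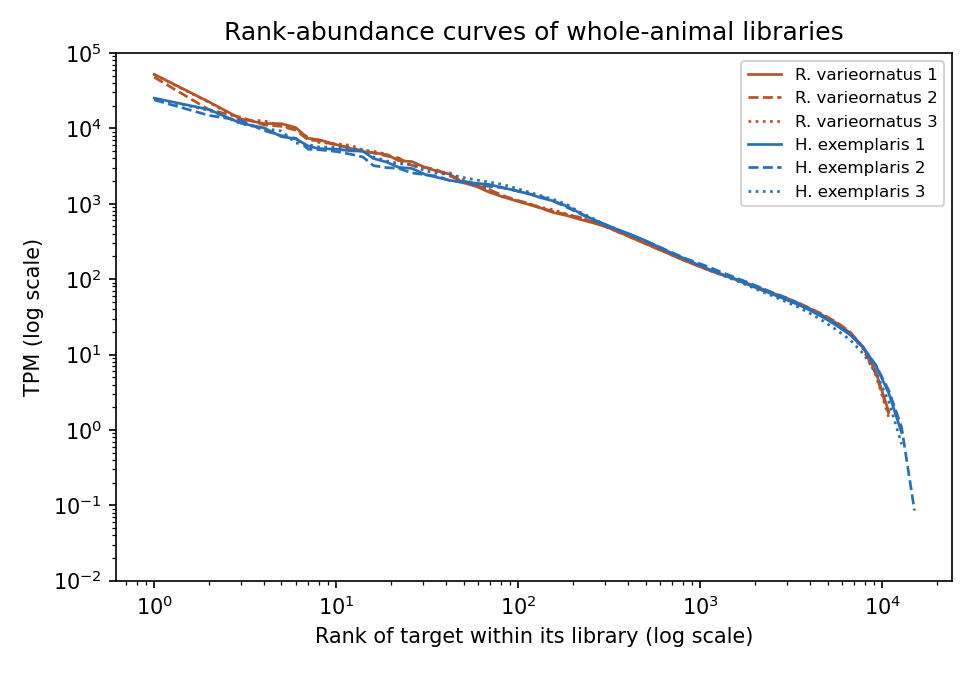
TPM of each target (vertical, log scale) against its rank within its own library (horizontal, log scale) for 3 R. varieornatus and 3 H. exemplaris whole-animal libraries, 1 line per library. The R. varieornatus lines start higher, with 50496 TPM at rank 1 on average against 24616 TPM in H. exemplaris, and the H. exemplaris lines lie higher at ranks 100 and 200.

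Over the whole curve, 3 of 4 measures of concentration in TPM gave groups that overlapped. The 1000 most abundant targets held 67.0% ± 0.71 of TPM in R. varieornatus and 67.2% ± 2.1 in H. exemplaris (SD, n = 3 each; exact permutation test, p = 0.8). The targets that together held 50% of TPM numbered 318, 329 and 302 in R. varieornatus and 340, 381 and 287 in H. exemplaris (exact permutation test, p = 0.6). The H. exemplaris libraries enclosed the R. varieornatus libraries on this measure, with replicate 2 highest and replicate 3 lowest. In shares of counts, not divided by length, the groups did not overlap, with 305.7 targets in R. varieornatus and 601.7 in H. exemplaris on average. The number of targets holding 90% of TPM was 4333 ± 84.3 in R. varieornatus and 4297 ± 298 in H. exemplaris (SD, n = 3 each; exact permutation test, p = 1). The signs of these last 3 differences changed under other settings, so no order is read from them. The effective number of targets, the exponential of the Shannon entropy of the TPM shares, was 1918 ± 76.9 in R. varieornatus and 2285 ± 218 in H. exemplaris (SD, n = 3 each), without overlap. Its difference of -367 was -145 without the leading target of each library (exact permutation test, p = 0.5).

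A larger share of the gene models was expressed in R. varieornatus, although H. exemplaris expressed more models in number. A target was called detected with at least 5 counts after every library had been thinned to 5404544 counts. Detected targets made up 74.5%, 74.6% and 73.8% of the R. varieornatus models, against 59.9%, 61.3% and 58.8% of the H. exemplaris models. The lowest R. varieornatus library was far above the highest H. exemplaris library. In number, 10796 ± 60.4 targets were detected in R. varieornatus and 12512 ± 262 in H. exemplaris (SD, n = 3 each). With detection weighted to the same mix of length classes in both species, the share was 71.9% ± 0.415 in R. varieornatus and 61.6% ± 1.29 in H. exemplaris (SD, n = 3 each). Restricting the models to those with any count in any library of the species, storage cells included, narrowed the difference to 4.98 percentage points, with 79.1% in R. varieornatus and 74.1% in H. exemplaris.

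The models without signal were mostly short and mostly without signal anywhere in the series. No count in any of the 3 whole-body libraries was found for 1402 R. varieornatus targets (9.65% of the models) and 4606 H. exemplaris targets (22.1%). Their median length was 408 bp in R. varieornatus and 390 bp in H. exemplaris, against medians over all models of 1080 bp in R. varieornatus and 993 bp in H. exemplaris. Of these targets, 902 in R. varieornatus (64.3%) and 3989 in H. exemplaris (86.6%) also had no count in the 5 storage cell libraries. A small remainder was seen in storage cells: 150 of the R. varieornatus and 147 of the H. exemplaris targets reached 5 counts in at least 1 storage cell library. Storage cell libraries held 7680812 to 11174369 estimated counts, more than any whole-body library, and their RNA went into the amplification without the extraction used for whole animals. Among targets detected in any whole-body library, 90.4% in R. varieornatus and 87.2% in H. exemplaris were detected in all 3.

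The number of targets from 10 to 1000 TPM was nearly the same in both species, but their share of the models was larger in R. varieornatus. By the mean over 3 libraries, 6745 R. varieornatus and 6732 H. exemplaris targets had 10 to 100 TPM, and 1422 R. varieornatus and 1384 H. exemplaris targets had 100 to 1000 TPM. At 10 to 100 TPM these were 46.4% of the R. varieornatus and 32.3% of the H. exemplaris models. At 100 to 1000 TPM they were 9.79% of the R. varieornatus and 6.64% of the H. exemplaris models. The top class, at 1000 TPM or above, was smaller in R. varieornatus, with 109 targets, than in H. exemplaris, with 176. Targets from 1 to 10 TPM numbered 3118 in R. varieornatus and 4385 in H. exemplaris. Faint targets, above 0 and under 1 TPM, numbered 1736 in R. varieornatus and 3570 in H. exemplaris. Because every library sums to the same total, these classes are shares of a whole and do not measure RNA per animal.

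Abundance was placed on shorter coding sequences in H. exemplaris than in R. varieornatus. The lengths are coding lengths, since 99.6% of the R. varieornatus and 99.2% of the H. exemplaris lengths are multiples of 3. Ordered by length, the midpoint of the TPM fell at 903, 900 and 894 bp in R. varieornatus, against 786, 786 and 744 bp in H. exemplaris. Targets under 600 bp held 21.6%, 22.1% and 21.8% of TPM in R. varieornatus and 33.9%, 33.8% and 35.7% in H. exemplaris. The groups did not overlap in either measure. The difference of -12.6 percentage points was -5.02 in shares of counts, and with the edge at 450 bp in place of 600 bp it was -4.24. With TPM from full in place of effective lengths it was -9.38, at 12.9% in R. varieornatus and 22.2% in H. exemplaris. Nearly all of the -12.6 lay in the class from 300 to under 600 bp, which held 21.3% ± 0.27 of TPM in R. varieornatus and 33.9% ± 1.04 in H. exemplaris (SD, n = 3 each). Targets under 300 bp held 0.541% ± 0.041 in R. varieornatus and 0.542% ± 0.029 in H. exemplaris (SD, n = 3 each; exact permutation test, p = 1). Without the 2 leading targets of that class in each library, the shares were 0.377% in R. varieornatus and 0.441% in H. exemplaris, and the groups did not overlap.

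The class from 300 to under 600 bp counted 2863 models in R. varieornatus (19.7% of all models) and 4597 in H. exemplaris (22.0%). TPM sums to the same total over 14532 models in R. varieornatus and 20853 in H. exemplaris. The mean over all models is therefore lower in H. exemplaris, and equal means per model do not stand equally high within each species. The mean TPM per model of the class was 74.3 ± 0.943 in R. varieornatus and 73.8 ± 2.26 in H. exemplaris (SD, n = 3 each; exact permutation test, p = 0.6). The sign of that small difference depended on single H. exemplaris libraries: it was -0.04 TPM without replicate 1 and -0.09 TPM without replicate 2. Without the 2 leading targets of the class in each library, the mean was 70.6 TPM in R. varieornatus and 65.8 TPM in H. exemplaris, and the groups did not overlap. At the top of the class the species did differ in number, with 24 of the 2863 R. varieornatus and 79 of the 4597 H. exemplaris targets at a mean of 1000 TPM or above. This contrast depended on the cut-off. At 500 TPM or above there were 100 R. varieornatus and 148 H. exemplaris targets. At 100 TPM or above the share was larger in R. varieornatus, with 14.4% of the class models against 10.7% in H. exemplaris. Only 50.3% ± 0.954 of the R. varieornatus models and 39.0% ± 0.71 of the H. exemplaris models of this class were detected (SD, n = 3 each).

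Long coding sequences were more abundant in R. varieornatus. Targets from 2400 to under 4800 bp held 7.57% ± 0.041 of TPM in R. varieornatus and 3.62% ± 0.43 in H. exemplaris (SD, n = 3 each). Targets of 4800 bp and over held 2.84%, 2.73% and 2.78% in R. varieornatus, against 0.792%, 0.556% and 0.579% in H. exemplaris, a ratio of means of 4.34. Much of this share lay in a pair of targets: g772.t1 and g954.t1 held 57.6% of the TPM of that class in R. varieornatus. Without the 2 leading targets of the class in each library, the share was 1.20% in R. varieornatus and 0.427% in H. exemplaris. Per model, the mean in that class was 84.9 ± 1.73 TPM in R. varieornatus and 15.7 ± 3.19 TPM in H. exemplaris (SD, n = 3 each), or 36.3 TPM in R. varieornatus and 10.47 TPM in H. exemplaris without those 2. Part of this contrast per model is built in, since the same total is spread over fewer models in R. varieornatus. The class made up 2.26% of the R. varieornatus and 1.96% of the H. exemplaris models.

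The middle classes lay between these extremes. Targets from 600 to under 1200 bp held the largest part of the TPM in both species, 45.2% ± 0.374 in R. varieornatus and 40.8% ± 0.774 in H. exemplaris (SD, n = 3 each). Targets from 1200 to under 2400 bp held 22.6% ± 0.165 in R. varieornatus and 20.5% ± 1.37 in H. exemplaris (SD, n = 3 each). These 2 differences took the opposite sign when shares of counts, not divided by length, were used in place of TPM, at -6.05 and -8.03 percentage points. With TPM from full lengths they were 1.10 percentage points from 600 to under 1200 bp (exact permutation test, p = 0.3) and 0.209 from 1200 to under 2400 bp (exact permutation test, p = 1). Without the 2 leading targets of the class in each library, the difference from 600 to under 1200 bp was 1.77, against 4.36 with them. Counts weight each transcript by its length, and on that scale the R. varieornatus excess in the longest class was 11.9 percentage points. The R. varieornatus share there, 17.5% of counts, includes g772.t1 and g954.t1, with mean estimated counts of 293775 and 175654. The excess in counts was not computed without them.

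In each length class a larger part of the R. varieornatus models was detected. The detected share climbed with length in both species, which is in part built in, since a longer transcript yields more reads at the same TPM. Under 300 bp it was 11.8% ± 0.381 in R. varieornatus and 4.71% ± 0.308 in H. exemplaris (SD, n = 3 each). At 4800 bp and over it was 97.6% in all 3 R. varieornatus libraries and 86.9% ± 1.1 in H. exemplaris (SD, n = 3). Within each of the 6 classes every R. varieornatus library lay above every H. exemplaris library, by 7.07 to 11.6 percentage points on average.

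**Figure D2:**
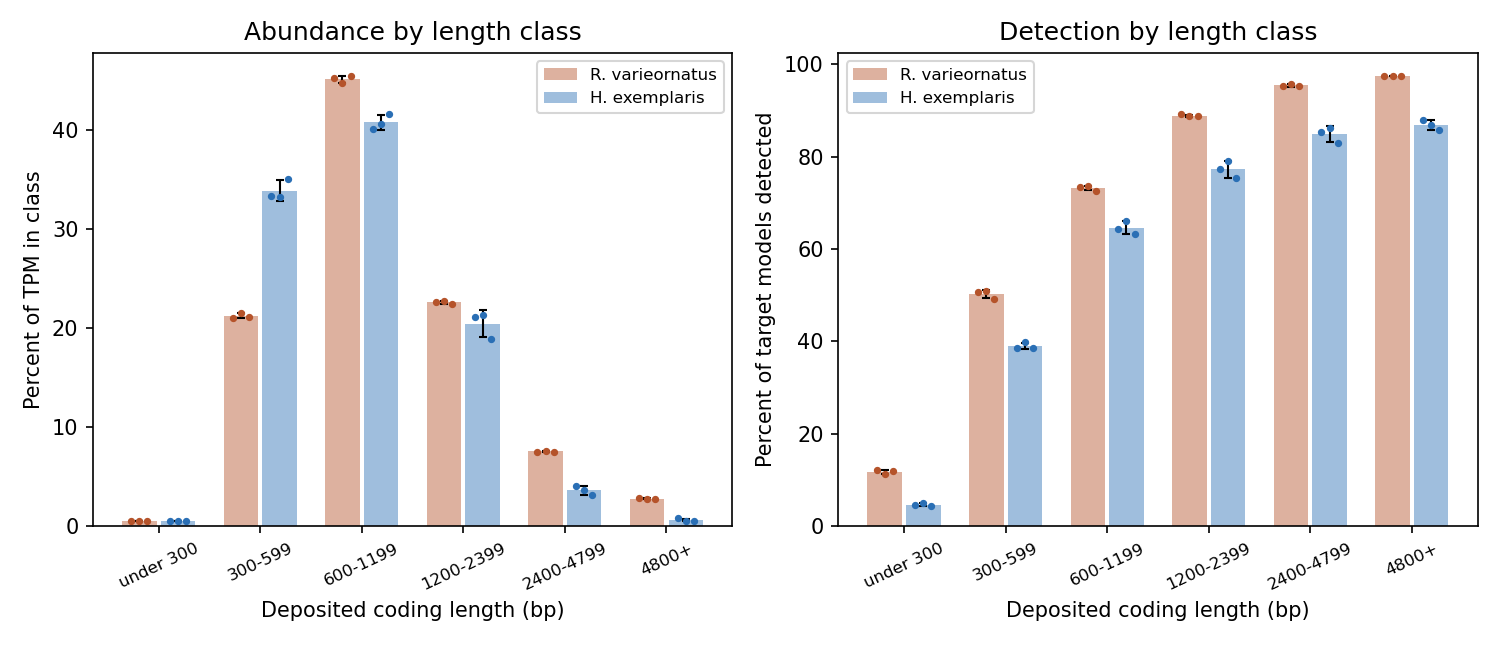
Percent of TPM (left) and percent of target models detected (right) by deposited coding length in bp, for R. varieornatus and H. exemplaris whole animals; bars are means, error bars SD and points the 3 libraries. On the left, the class from 300 to under 600 bp holds 21.3% in R. varieornatus and 33.9% in H. exemplaris, and on the right R. varieornatus is higher in every class.

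Among the 100 leading targets, those of H. exemplaris were shorter than those of R. varieornatus. Of the 100 most abundant R. varieornatus targets, 22 were shorter than 600 bp and 7 were 2400 bp or longer. Of the 100 most abundant H. exemplaris targets, 47 were shorter than 600 bp and 0 were 2400 bp or longer. Over all models, 23.5% in R. varieornatus and 30.3% in H. exemplaris were shorter than 600 bp, below the share in the H. exemplaris list and close to that in the R. varieornatus list. The median length of the 100 leading targets was 792 bp in R. varieornatus and 622.5 bp in H. exemplaris, in both below the median of all models. For the 10 leading targets the medians were close, at 882 bp in R. varieornatus and 873 bp in H. exemplaris. At ranks 11 to 100 the median length was 772.5 bp in R. varieornatus and 598.5 bp in H. exemplaris. Across the targets with a mean of at least 1 TPM, the rank correlation of TPM with length was -0.03 to -0.02 in the R. varieornatus libraries and -0.15 to -0.10 in the H. exemplaris libraries. These correlations are across targets, which share a library and are not independent replicates.

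The target at the head of the R. varieornatus list stood far above the rest. Target g12750.t1 (861 bp) had 52104, 47716 and 51667 TPM in the 3 libraries. It was followed by g2834.t1 (1056 bp) with 22448, 17671 and 22119 TPM, and by g7704.t1 (903 bp) with 13316, 14053 and 12652 TPM. The first 2 places were the same in the 3 libraries, and in replicate 3 g4549.t1 (780 bp, 12784 TPM) exceeded g7704.t1. The level repeated closely, with a coefficient of variation (CV, SD over mean) of 4.79% for g12750.t1, 12.9% for g2834.t1 and 5.25% for g7704.t1. The target with the preceding number, g12749.t1 (1035 bp), had rank 5 with 10561 ± 322 TPM (SD, n = 3). Its counts were not whole numbers, so it shared reads with another target and its level is less certain.

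Below these, the R. varieornatus list held several long transcripts. Target g772.t1 (5358 bp) had rank 6 in TPM, with 11552, 9477 and 9863 TPM, and rank 1 in estimated counts, with 326406, 266927 and 287992. Its numerical neighbour g773.t1 (2730 bp) had 4933, 5028 and 5179 TPM, the smallest CV among the 15 leading targets (2.46%). Target g954.t1 (5583 bp) had 5404, 5541 and 6257 TPM and rank 2 in estimated counts, with a mean of 175654. Target g3808.t1 (2796 bp) had rank 7, with 7388, 7018 and 7542 TPM. Target g297.t1 (1515 bp) had 4795 ± 403 TPM (SD, n = 3), again with counts that were not whole. The other 5 of the 15 leading targets were 510 to 882 bp long.

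The head of the H. exemplaris list was flatter, and its longest target was shorter. Target BV898_16259.t01 (492 bp) had 25191, 23892 and 24764 TPM, with counts that were not whole. Target BV898_08387.t01 (936 bp) had 17777, 14854 and 17396 TPM, and BV898_07018.t01 (561 bp) had 11689, 12707 and 11535 TPM. The order was the same in the 3 libraries. The 15 leading targets ran from 50496 TPM down to 4795 TPM and together held 17.1% of TPM in R. varieornatus, against 24616 TPM down to 4090 TPM and 12.3% in H. exemplaris. The longest of the 15 had 5583 bp in R. varieornatus and 1335 bp in H. exemplaris.

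The first place in H. exemplaris depended on the length used. For short targets the effective length is a small part of the length, 40.4% for BV898_16259.t01 and 70.1% for BV898_08387.t01. With TPM recomputed from full lengths, BV898_08387.t01 came first, with 19728 TPM and BV898_16259.t01 second with 16813 TPM. In R. varieornatus g12750.t1 stayed first, with 47125 TPM, and g772.t1 moved to rank 3, with 15040 TPM. Among the 15 leading targets, 14 in R. varieornatus and 13 in H. exemplaris remained among the leading 15. By estimated counts the H. exemplaris list was led by BV898_08387.t01 (93972, 80675 and 94344), then BV898_13342.t01 (2283 bp, mean 58802) and BV898_00099.t01 (9240 bp, mean 58579).

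The leading target of a length class stood higher in R. varieornatus in 4 of the 6 classes and higher in H. exemplaris in the other 2. From 2400 to under 4800 bp the leader was g3808.t1 in R. varieornatus, with 7316 ± 269 TPM, and BV898_04116.t01 (2979 bp) in H. exemplaris, with 735 ± 51.8 TPM (SD, n = 3 each). At 4800 bp and over it was g772.t1 in R. varieornatus, with 10297 ± 1104 TPM, and BV898_08330.t01 (5631 bp) in H. exemplaris, with 1069 ± 274 TPM (SD, n = 3 each). Under 300 bp it was g5140.t1 (279 bp) in R. varieornatus, with 1149, 1433 and 1589 TPM, and BV898_09030.t01 (288 bp) in H. exemplaris, with 533, 579 and 562 TPM. From 600 to under 1200 bp it was g12750.t1 in R. varieornatus and BV898_08387.t01 in H. exemplaris, at the levels given above. These are levels of different genes, and only their place in the distribution is compared. In the other 2 classes the H. exemplaris leader was higher. From 300 to under 600 bp the leader was g1671.t1 (510 bp) in R. varieornatus, with 6348 ± 532 TPM, and BV898_16259.t01 in H. exemplaris, with 24616 ± 662 TPM (SD, n = 3 each). From 1200 to under 2400 bp it was g297.t1 in R. varieornatus, with 4795 ± 403 TPM, and BV898_03573.t01 (1245 bp) in H. exemplaris, with 7011 ± 539 TPM (SD, n = 3 each).

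Few genes had more than 1 target, and none of the 15 leading targets in either species (0 in each) belonged to one. Genes with isoforms made up 3.96% of R. varieornatus and 4.12% of H. exemplaris genes and held 2.97% of the TPM in R. varieornatus and 2.20% in H. exemplaris, so nothing is read from a count of 0 among 15. Some abundant targets carried consecutive numbers: among the genes of the 100 leading targets, 10 in R. varieornatus (5 runs) and 14 in H. exemplaris (6 runs) did, the longest being a run of 3 that starts at BV898_09382. No background share was computed for lists of this size, so nothing is read from these counts. Whether such targets are neighbours in the genome was not examined.

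The leading whole-body targets were also set beside their levels in storage cells, which float freely in the tardigrade body cavity. The storage cell median was below the whole-body mean for 12 of the 15 leading targets in each species, against 77.4% of all R. varieornatus and 85.7% of all H. exemplaris targets with a count. In bulk samples such a difference cannot separate fewer cells of a type from less RNA per cell, and the RNA of the 2 sample types was obtained differently. All 3 whole-body values lay above all 5 storage cell values for 6 of the 15 R. varieornatus targets and for 8 of the 15 H. exemplaris targets. The same held for 36.9% of all R. varieornatus targets with a count and for 53.2% of all H. exemplaris targets, so both counts of each species are near the background. The 15 were chosen for a high whole-body level, and nothing is read from the counts. Values wholly below storage cells were found for 1 of the 15 in R. varieornatus, g1671.t1, and for 0 in H. exemplaris, against 5.67% of all targets in R. varieornatus and 3.56% in H. exemplaris.

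Single targets differed widely in this respect. Target g3808.t1 had 7018 to 7542 TPM in whole bodies and at most 41.7 TPM in storage cells, with a median of 0.47 TPM. Target g1671.t1 had 6961, 6011 and 6072 TPM in whole bodies and 22232 to 100431 TPM in storage cells. The numerically adjacent g772.t1 and g773.t1 had medians of 1260 and 782 TPM in storage cells, with g773.t1 ranging there from 3.32 to 15458 TPM. The single target of the gene g12777 (696 bp) had 291, 246 and 250 TPM in whole bodies, rank 565, and 0 to 3.2 TPM in storage cells. The highest storage cell value was more than 10 times the lowest for 12 of the 15 leading R. varieornatus targets, the exceptions being g12749.t1, g6309.t1 and g1671.t1. The 3 whole-body values stayed within a CV of 12.9% for each of the 15.

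In H. exemplaris, the highest storage cell value of the 15 leading targets was in storage cell replicate 2 for 8, in replicate 3 for 5 and in replicate 5 for 2. It reached the lowest whole-body value for 1 of the 8, for 4 of the 5 and for both in replicate 5. Target BV898_08387.t01 had 36195 TPM in storage cell replicate 3 and 54.8 to 1361 TPM in the other 4, against 14854 to 17777 TPM in whole bodies. Target BV898_10202.t01 (882 bp) had 13728 TPM in the same library and 18.0 to 461 TPM in the other 4, against 5058 to 6093 TPM in whole bodies. In contrast, BV898_05814.t01 (864 bp) had 7768, 8019 and 9229 TPM in whole bodies and 4.49 to 378 TPM in the 5 storage cell libraries. The first 2 of these therefore overlap with storage cells through 1 library only.

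**Figure D3:**
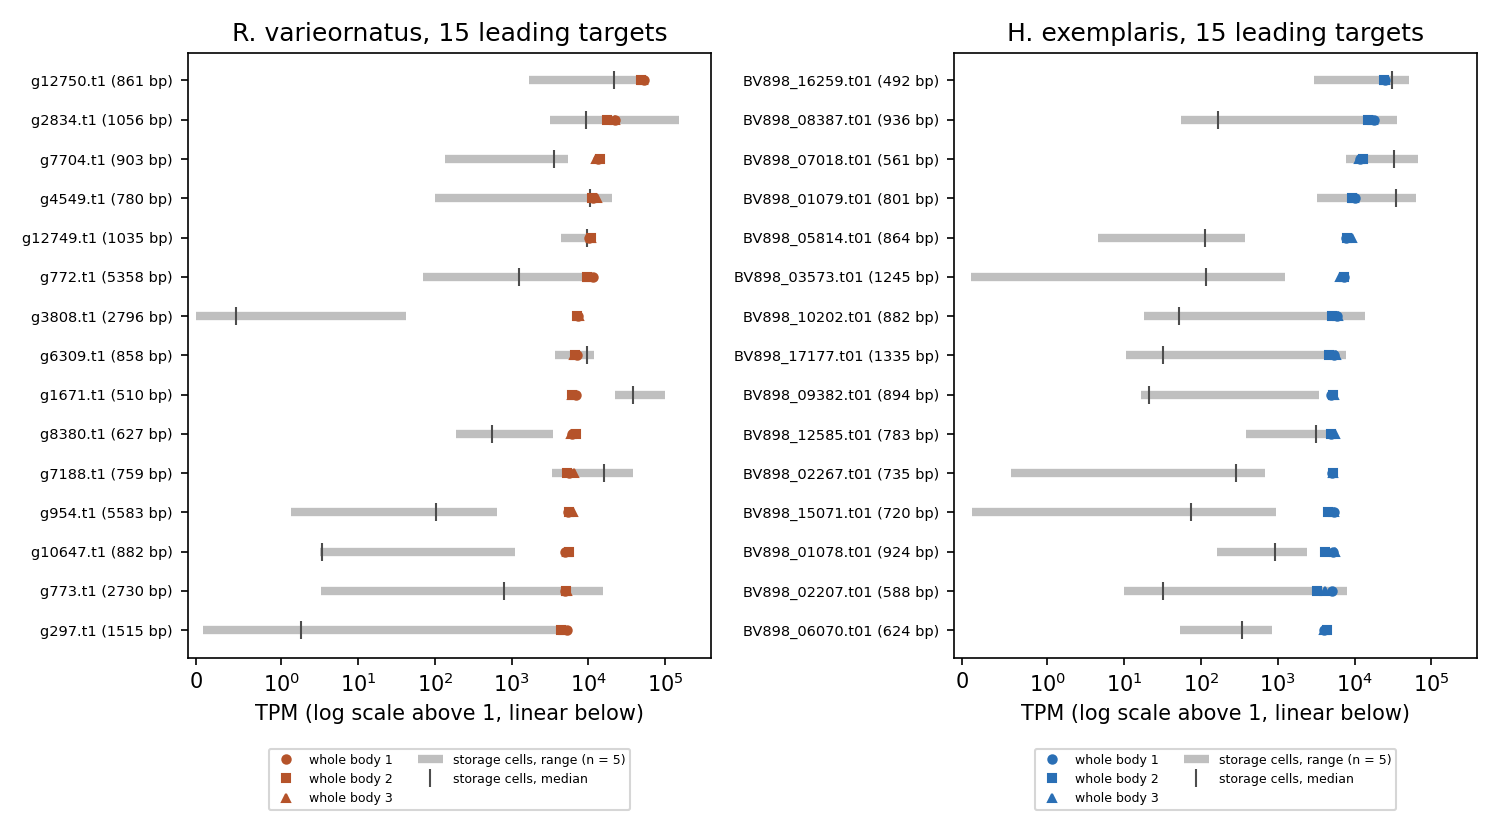
TPM (horizontal, log scale above 1 and linear below) of the 15 targets with the highest mean whole-body TPM in R. varieornatus (left) and H. exemplaris (right). Coloured symbols are the 3 whole-body libraries, grey bars the range and ticks the median of 5 storage cell libraries. The whole-body symbols of a target lie close together, while the storage cell ranges are mostly wider, from 0 to 41.7 TPM for g3808.t1 and from 22232 to 100431 TPM for g1671.t1.

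In TPM, the whole-body libraries were also spread over more targets than the storage cell libraries. In R. varieornatus 50% of TPM lay in 316 ± 13.6 targets in whole bodies (SD, n = 3) and in 145 ± 74.6 in storage cells (SD, n = 5; exact permutation test, two-sided, p = 0.0357, adjusted p = 0.0536 over 6 tests). In H. exemplaris the numbers were 336 ± 47.1 in whole bodies (SD, n = 3) and 46.8 ± 27.6 in storage cells (SD, n = 5; exact permutation test, p = 0.0179, adjusted p = 0.0536). All 3 whole-body libraries lay above all 5 storage cell libraries in both species. The midpoint of the TPM by length was 899 ± 4.58 bp in R. varieornatus whole bodies (SD, n = 3) and 769 ± 79.4 bp in storage cells (SD, n = 5; exact permutation test, p = 0.0357, adjusted p = 0.0536). In H. exemplaris it was 772 ± 24.2 bp in whole bodies (SD, n = 3) and 714 ± 110 bp in storage cells (SD, n = 5; exact permutation test, p = 0.411, adjusted p = 0.411). Targets under 600 bp held 21.8% ± 0.273 of TPM in R. varieornatus whole bodies (SD, n = 3) and 34.4% ± 5.75 in storage cells (SD, n = 5; exact permutation test, p = 0.0357, adjusted p = 0.0536). In H. exemplaris they held 34.5% ± 1.07 in whole bodies (SD, n = 3) and 39.7% ± 9.34 in storage cells (SD, n = 5; exact permutation test, p = 0.357, adjusted p = 0.411). None of the 6 comparisons passed 0.05 after adjustment, and the difference between the species in these contrasts was not tested.

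Replicates were tighter in R. varieornatus than in H. exemplaris. Among targets with a mean of 10 to 100 TPM, the median CV over the 3 libraries was 11.1% in R. varieornatus and 15.8% in H. exemplaris, where counting error alone would give about 7.60% in R. varieornatus and 6.71% in H. exemplaris. At 1000 TPM and above it was 8.41% in R. varieornatus and 9.76% in H. exemplaris, with counting error near 1.26% in R. varieornatus and 1.46% in H. exemplaris. Of targets with a mean of at least 50 TPM, 38 of 3272 (1.16%) in R. varieornatus and 158 of 3153 (5.01%) in H. exemplaris spanned more than a 2-fold range of TPM + 1. The rank correlation of TPM between replicate pairs was 0.972 to 0.974 in R. varieornatus and 0.962 to 0.966 in H. exemplaris, across targets with a mean of at least 1 TPM. No pair of replicates held identical values (0 in each species). As a check for repeated deposits of 1 library, the chi-square per degree of freedom between replicates was 7.51 to 8.58 in R. varieornatus and 14.3 to 20.5 in H. exemplaris. This comparison of spread is a description and was not tested.

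**Figure D4:**
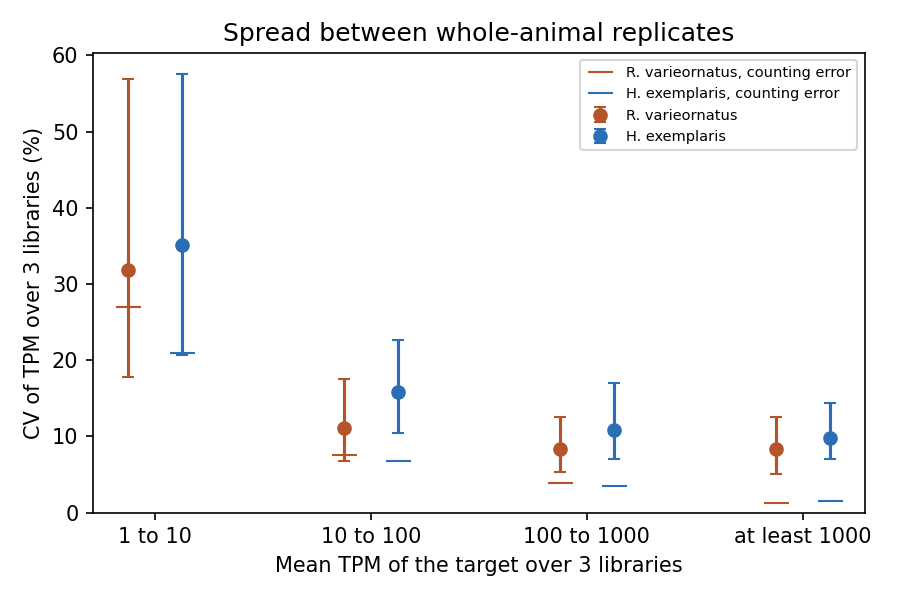
Coefficient of variation of TPM over 3 libraries (vertical, percent) by mean TPM of the target (horizontal), for R. varieornatus and H. exemplaris whole animals; points are medians over targets, bars the quartiles and dashes the counting error. The R. varieornatus medians are lower in every class, at 11.1% in R. varieornatus and 15.8% in H. exemplaris for 10 to 100 TPM.

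The named targets with the widest range were all shorter than the median model of their species. In R. varieornatus the widest range was that of g7436.t1 (312 bp), with 3.49, 250 and 272 TPM, whose counts were not whole. Target g12643.t1 (360 bp) had 119, 17.0 and 60.6 TPM, and g3881.t1 (636 bp) had 94.2, 46.8 and 164 TPM. Target g12643.t1 rests on few reads, with a mean estimated count of 39.0, and g3881.t1 had a mean of 191. In H. exemplaris the 3 widest all had their lowest value in replicate 2 and their highest in replicate 3. BV898_07587.t01 (675 bp) had 425, 28.1 and 735 TPM, at a mean estimated count of 1210. BV898_08869.t01 (540 bp) had 34.6, 5.99 and 136 TPM, and BV898_09039.t01 (498 bp) had 161, 19.2 and 314 TPM. Among the 100 H. exemplaris targets with the widest range, replicate 2 was the library farthest from the median for 46, replicate 3 for 41 and replicate 1 for 13. Replicate 2 was the lowest in 31 of its 46, and replicate 3 was the lowest in 35 of its 41. Over all 3153 H. exemplaris targets with a mean of at least 50 TPM, replicate 2 was farthest for 37.8%, replicate 3 for 34.3% and replicate 1 for 28.0%. There replicate 2 was the highest in 865 of its 1191, and replicate 3 the lowest in 634 of its 1080. The order seen in the 3 named targets was thus not that of these wider sets.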

How the data were processed

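The authors quantified reads with kallisto 0.46.1 (bcl2fastq 2 is also named), per the submitters' processing notes. Per the file headers, the deposited tables give estimated counts, which are not normalized, and TPM, which is counts over effective length scaled per library. The sources used here name neither the reference transcripts nor a genome build. Libraries were grouped by title. Values, tests and thinning were computed with Python 3.11.15, numpy 2.4.6, pandas 2.3.3 and scipy 1.17.1. Counts were rounded for thinning. Length classes had edges at 300, 600, 1200, 2400 and 4800 bp. Standardised detection weighted the classes by their share of both species' models. Permutation tests were exact and two-sided, adjusted by Benjamini-Hochberg over 30 comparisons between species and over 6 with storage cells. The code was tested on simulated data. Counting error covers reads only, since amplified reads are not independent molecules.

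Targets were named by rule: per species the 15 highest in mean TPM, the leader of each length class, the 3 highest in estimated count, the 3 with the widest range of log2(TPM + 1) at a mean of at least 50 TPM, and gene g12777. Members and rules were chosen with earlier results of these data known. Second targets of a class, and targets set beside storage cell replicate 3, were chosen from these after their values were seen.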

Additional observations from a re-analysis of the deposited data

How the results depend on the processing

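Of 302 recomputed values for the 30 comparisons between species, 286 kept their direction and 16 changed sign. Many of the 286 could not have changed. Where the groups did not overlap, leaving out 1 library cannot turn the sign, and the replicate block described below leaves every difference as it was. The count of 286 is therefore not read as a measure of robustness. No value passed 0.05 in any setting, because the design cannot. The changes of sign fell on small differences, except those from counts not divided by length. For the TPM share of the 1000 most abundant targets (-0.225 percentage points), leaving out a library gave -1.20 to 0.883 (0.0938 without R. varieornatus replicate 2), count shares 7.998 and full lengths 1.85. For targets holding 50% of TPM (-19.7), leaving out a library gave -44.2 to 2.83, removing the leading target 11.3, full lengths -82.3 and count shares -296, where the groups did not overlap. For targets holding 90% of the TPM (36.7), the values were -132.7 to 148.3, -949.7 with count shares and -219.7 with full lengths. The share under 300 bp ranged from -0.0219 to 0.0184 percentage points without a library, including 0.0026 and 0.0156, and was -0.0639 without the 2 leading targets of the class. The mean TPM per model from 300 to under 600 bp ranged from -0.0853 to 1.89 without a library, including -0.0437, and was 4.73 without those 2. With count shares, the share from 600 to under 1200 bp differed by -6.05 and that from 1200 to under 2400 bp by -8.03 percentage points.

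Against storage cells in R. varieornatus, leaving out a library gave differences of 147 to 196 targets holding 50% of TPM, 109 to 153 bp in the length midpoint and -14.4 to -11.1 percentage points under 600 bp, with exact permutation p of up to 0.0952. Count shares gave 87.7 targets (exact permutation p = 0.214). The detected share differed by 4.98 to 17.4 percentage points over its alternatives.

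The replicate numbers of both species are shared, but unmatched targets allow no check of pairing and nothing ties the animals. With the replicate block, an exact sign-flip test over 3 pairs, the differences were the same, 14.3 percentage points for the detected share, and the smallest p is 0.25.
Among 120 alternatives for the mean TPM of leading targets, chosen after seeing the data, 23 moved by more than 1 SD, all of them with full lengths. Leaving out a library moved 0, and leaving out 1 of 3 values cannot move a mean that far. The 120 are therefore not read as a measure of stability. Only the full-length values could have moved by more than 1 SD, and most of them did.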
